A study of Mus musculus with 2 samples.

Results

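The cells described here are neutrophil precursors that carried the transcripts of specific granules, Ngp and Camp first among them, and were found in tissue sorted for the Clec3b lineage. They were chosen by measured transcript levels. UMIs (unique molecular identifiers) each count 1 captured transcript, and a member had 500 or more genes detected, no more than 10% of its UMIs from mitochondrial genes, and met 3 further limits. S100a8 and S100a9 together had to make up at least 3% of its UMIs, and the primary granule genes Mpo, Elane, Prtn3 and Ctsg together under 1%. The late genes Retnlg, Cxcr2, Il1b and Csf3r together could have no more UMIs than Camp, Ngp and Ltf together. These 13 genes chose the cells, so their levels are given as a description. The rule found 159 of 1207 analysed cells in intact tissue and 568 of 3295 in fracture callus, or 727 of 4502. They are called immature neutrophils below. Cells past the S100 and primary granule limits but with more late than granule UMIs are called mature neutrophils (150 intact and 161 callus cells), and cells at or above the primary granule limit are called progenitors (7 and 214 cells).

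The study marked Clec3b-expressing cells in Clec3b.creERT2; Ai14.R26.tdTomato mice, in which CreERT2 is made from the Clec3b locus and tamoxifen switches on tdTomato for good in a cell and its descendants. Tamoxifen was given 2 weeks before surgery, a stabilized femoral fracture was made at 6 weeks of age, and 3 weeks later the callus and, as the control, unfractured diaphysis with its muscle were collected from 3 littermates described as male. The tissue of the 3 mice was pooled by condition, digested with collagenase and sorted for tdTomato before 10x Chromium 3′ sequencing. Each condition is therefore 1 library with no replicate, so no test between conditions was possible, and condition, library and tissue makeup cannot be told apart.

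The sex given in the labels did not match the transcripts of the immature neutrophils. Xist RNA, which coats the silenced X chromosome of female cells, was found in 32 of 43 intact and 272 of 288 callus members with at least 10000 UMIs (74.4% and 94.4%), and 8 Y-linked genes held 1 UMI in all intact and 0 in all callus members. Clec3b itself, whose locus drives the Cre, was at 12.2 CPM (counts scaled to a total of 1000000 UMIs) in intact and 5.77 CPM in callus members, against 578 and 125 CPM in the cells outside the 3 neutrophil classes. The tdTomato transcript was not analysed here. Being in the sorted fraction does not show that a cell arose from Clec3b-expressing cells. The study reported no meaningful tdTomato expression in its hematopoietic populations, and held the blood cells of these libraries to be carried along by the sorting. No cell barcode of a member was shared between the libraries.

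Neutrophils arise in the marrow from progenitors that pack azurophil, or primary, granules at the promyelocyte stage, specific granules at the myelocyte and metamyelocyte stages and gelatinase granules in band cells. Divisions end around the myelocyte stage, after which the nucleus becomes segmented and genes of migration and inflammatory response come on. The transcription factor C/EBPε is needed for specific granule genes.

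The 250 bases before the RefSeq start sites of the 4 most abundant markers are shown, because these genes lead the transcripts of specific granules in the cells and C/EBP factors are known to act on genes of this kind. Capitals mark matches to TTNNGNAA or its reverse complement TTNCNNAA, a loose form of the C/EBP motif, and overlapping matches were counted separately. All are from GRCm38.p6 and are written 5′ to 3′ on the gene's strand. The Ngp window (chr9:110419558-110419807, plus strand) held 3 matches, that of Ltf (chr9:111019042-111019291, plus strand) 2, that of Lcn2 (chr2:32387740-32387989, minus strand) 1 and that of Camp (chr9:109849457-109849706, minus strand) 0. At least 1 match was found in 36.8% of 32817 promoter windows of the same length.
Ngp: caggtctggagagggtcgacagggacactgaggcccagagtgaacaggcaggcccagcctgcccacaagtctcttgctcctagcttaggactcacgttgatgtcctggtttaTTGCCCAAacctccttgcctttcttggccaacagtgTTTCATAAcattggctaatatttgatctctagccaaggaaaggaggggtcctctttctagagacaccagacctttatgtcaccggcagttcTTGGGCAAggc
Ltf: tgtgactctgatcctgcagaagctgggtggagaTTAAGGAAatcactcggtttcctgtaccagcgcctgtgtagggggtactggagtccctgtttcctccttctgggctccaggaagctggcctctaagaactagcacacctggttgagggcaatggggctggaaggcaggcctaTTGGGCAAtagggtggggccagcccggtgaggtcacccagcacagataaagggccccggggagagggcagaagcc
Lcn2: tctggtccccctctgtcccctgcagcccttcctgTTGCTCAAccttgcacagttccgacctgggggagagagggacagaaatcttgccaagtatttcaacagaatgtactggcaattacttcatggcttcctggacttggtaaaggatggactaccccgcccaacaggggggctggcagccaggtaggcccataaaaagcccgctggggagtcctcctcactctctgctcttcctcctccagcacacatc
Camp: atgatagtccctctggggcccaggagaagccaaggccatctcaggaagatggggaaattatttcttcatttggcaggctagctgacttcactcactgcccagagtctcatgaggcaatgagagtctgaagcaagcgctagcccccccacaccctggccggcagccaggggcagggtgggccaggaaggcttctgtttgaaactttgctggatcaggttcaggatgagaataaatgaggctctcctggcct

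The immature neutrophils were well covered. Intact members had a median of 7922 UMIs and 1582 genes per cell (lowest 2667 and highest 26997 UMIs), and callus members 10284.5 UMIs and 2093 genes (1090 to 55850 UMIs). Their UMIs summed to 1472308 and 7283499, so that levels in the intact library are the less precise. S100a8 and S100a9, the calprotectin subunits, made up a median of 39.8% of a cell's UMIs in intact and 32.1% in callus members. Camp, Ngp and Ltf together made up 9.36% and 10.5%. Summed over cells, the 13 genes of the rule took 48.5% of all member UMIs in intact and 40.4% in callus.

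**Figure D1:**
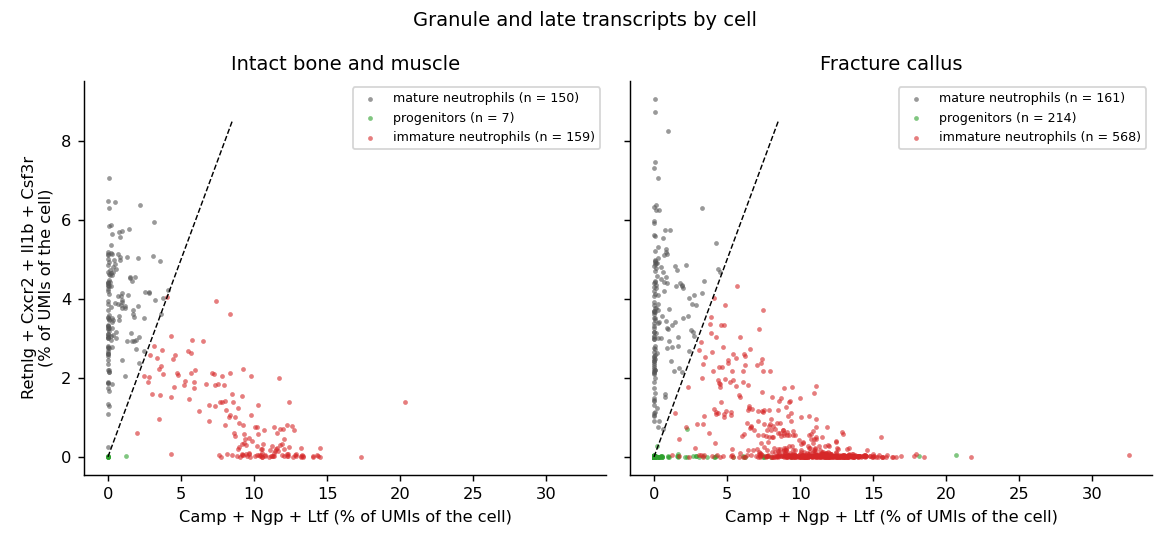
Each point is a cell of the intact (left) or callus (right) library, with the percent of its UMIs from Camp, Ngp and Ltf on the x axis and from Retnlg, Cxcr2, Il1b and Csf3r on the y axis. Red points below the dashed line of equality are the 159 and 568 immature neutrophils, which run without a gap toward the line.

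The rule cut a range rather than a separate group at its late limit. The late share, that is the late UMIs as a percent of late and granule UMIs together, was 49.8% in the intact member nearest to the limit of 50% and 50.1% in the nearest cell beyond it. In callus these were 49.4% and 50.8%. Between 40% and 60% lay 21 intact cells, of which 9 were members, and 31 callus cells, of which 16 were members. At the other limits, the lowest S100 percent of a member was 13.7% in intact and 4.57% in callus, with the nearest cells outside at 2.32% and 2.83%. The highest primary granule percent was 0.159% in intact members, next to 2.61% outside, and 0.983% in callus members, next to 1.07% outside. Of the callus members, 19 lay between 0.5% and the limit of 1%, and of the intact members 0.

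The markers Lcn2 and Ly6g were not used by the rule. Lcn2, which encodes the siderophore-binding lipocalin of specific granules, was counted in all 159 intact and all 568 callus members, at 16910 and 13887 CPM. Ly6g, the surface antigen recognised by granulocyte antibodies, was counted in 141 intact (88.7%) and 491 callus members (86.4%), at 628 and 453 CPM. Fibroblasts, which should lack both, carried Lcn2 in 7.12% (intact) and 9.63% (callus) of cells and Ly6g in 0% and 0.370%, at median depths of 7557 and 8307.5 UMIs. In all cells outside the neutrophil classes Lcn2 was at 14.9 and 17.3 CPM and Ly6g at 0.383 and 0.533 CPM. Mature neutrophils carried Lcn2 in 86.7% and 87.6% and Ly6g in 60.7% and 57.8% of cells, at median depths of 3723 and 3727 UMIs, so that detection of these markers marks neutrophils and does not set the immature ones apart. Among genes of the rule, the primary granule genes had a median of 0 in both libraries. Retnlg, a resistin-like secreted protein, had a median of 0.555% of the UMIs in intact and 0.0186% in callus members.

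Immature neutrophils were 13.2% of analysed cells in intact (95% interval 11.3 to 15.2%) and 17.2% in callus (16.0 to 18.6%). Among cells that were immature or mature neutrophils they were 51.5% (45.7 to 57.2%) and 77.9% (74.7 to 80.9%). Mature neutrophils went the other way, with 12.4% of cells in intact and 4.89% in callus, and progenitors were 0.580% and 6.49%. These exact Clopper-Pearson intervals cover counting error only, and shares of cells follow the tdTomato sort.

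Specific granule genes were at similar levels in the members of both libraries. Camp, the precursor of the antimicrobial peptide CRAMP, was at 44373 CPM in intact (exact Poisson interval 44034 to 44715) and 54083 in callus members (53914 to 54252). Ngp, a cystatin-like granule protein, was at 43092 and 43539 CPM. Ltf, the iron-binding lactotransferrin, was at 8722 and 6322 CPM. All 3 are genes of the rule. Of the 13 specific granule genes, all had at least 50 UMIs over both libraries, the minimum used for a ratio, and 1 was at least 2-fold lower and 0 at least 2-fold higher in callus. Over all 7282 genes with that minimum, 1674 (23%) were at least 2-fold higher and 130 (1.79%) at least 2-fold lower in callus members. The summed level of the 10 genes outside the rule was 26745 CPM in intact and 25158 in callus, log2 −0.09.

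Chil3, a chitinase-like secreted protein, was at 3194 CPM in intact and 5852 in callus members, 1.83-fold higher. Cd177, a surface receptor stored in these granules, was at 643 and 670 CPM. Pglyrp1, a peptidoglycan-binding protein, was at 1987 and 2202 CPM. The exception was Mmp8, the neutrophil collagenase, which comes on late in this series of stages, with 1855 CPM in intact and 583 in callus, 3.18-fold lower (log2 −1.67, exact conditional interval −1.74 to −1.60). It was counted in 74.8% of intact and 44.0% of callus members, and at 5000 UMIs per cell would be in 72.9% and 38.2%, against 0% and 0.289% of fibroblasts.

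A ratio of 2-fold was measured against a background that itself was not centred on 0. The median log2 ratio of callus over intact members was 0.45 over the 7282 genes. With the genes of the rule left out of the total it was 0.23, because every ratio then shifts by −0.21. Ratios between 0 and that size above 0 change sign with the choice of total, and this holds for the summed NADPH oxidase, eicosanoid, CDK inhibitor and marker lists and for the azurophil genes outside the rule.

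**Figure D2:**
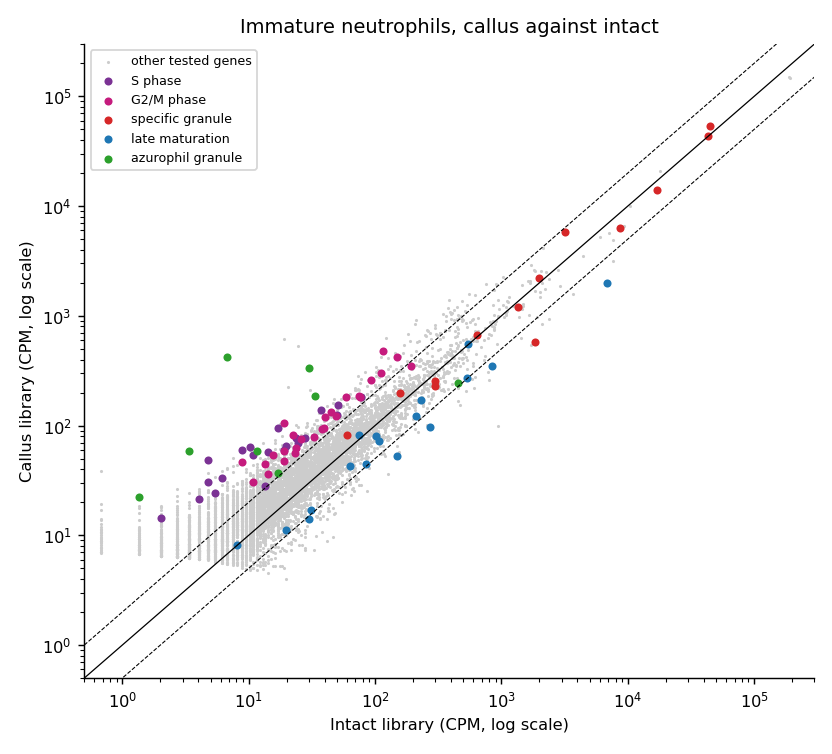
CPM of 7282 genes in the immature neutrophils of the intact (x axis) and callus (y axis) library, both on log scales, leaving out genes with no UMI in 1 library. The solid line is equality and the dashed lines are 2-fold. S and G2/M phase genes other than Cks2 lie above the upper dashed line, late maturation genes mostly below equality and specific granule genes along it, apart from Mmp8.

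Of the azurophil granule genes, 4 are in the rule, which kept them low in members. Among these, Elane, neutrophil elastase, was at 6.79 CPM in intact members (10 UMIs) and 417 in callus members (3039 UMIs). An Elane UMI was found in 22.9% of callus members. The primary granule percent of callus members had a median of 0, was 0.0514% at the 90th percentile and reached 0.983%, with 19 members above 0.5%. Prtn3, proteinase 3, was at 29.9 and 334 CPM. Of the 6 azurophil genes outside the rule, 4 had enough UMIs. Of these 3 were at least 2-fold higher and 0 lower in callus, against 23% and 1.79% of all genes. Among these Ms4a3, a granulocyte-monocyte progenitor gene, was 5.56-fold higher in callus (33.3 and 185 CPM), Nkg7 5.05-fold higher and Prss57, a granule serine protease, higher by 1.12 on the log2 scale. Srgn, the granule proteoglycan serglycin, was 1.84-fold lower in callus (452 and 246 CPM). The summed level of the genes outside the rule was 518 and 535 CPM, log2 0.05 (−0.06 to 0.16), with Srgn the most abundant. In non-cycling members 0 of 2 were 2-fold apart, against 7.03% higher and 0.628% lower of 4620 genes. The summed log2 ratio turned to −0.23 without members above 0.5% primary granule UMIs, to −0.32 as the mean of per-cell CPM and to −0.55 in non-cycling members.

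Elane, as a gene of the rule, is described only. It was at 659 CPM in cycling callus members and at 10.2, 9.51 and 6.66 CPM in non-cycling callus members of rising late share. Among cells with at least 5000 UMIs, each reduced to that number, 29.5% of 229 cycling and 5.03% of 286 non-cycling callus members would carry an Elane UMI. Of callus B lineage cells and fibroblasts, which do not make elastase, 4.59% of 201 and 5.14% of 210 would carry it, with 420 and 60 shallower cells left out. All 214 callus progenitors held Elane, at 10800 CPM.

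Fcnb, which encodes ficolin B, a lectin of early granulocytes, was higher in callus members. It was at 213 CPM in intact (190 to 237) and 926 CPM in callus members (904 to 948), 4.35-fold higher. It was counted in 47 intact (29.6%) and 346 callus members (60.9%), and at equal depth in 22.5% and 59.2%, against 0.251% of callus fibroblasts. In non-cycling members alone the log2 ratio was 1.45, compared with 2.12 in all members. Kit, the stem cell factor receptor, was at 16.3 and 28.0 CPM. Of the 7 progenitor list genes 5 had enough UMIs, of which 2 were at least 2-fold higher and 0 lower in callus, against 23% and 1.79% of all genes.

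Cell cycle genes were higher in callus members. The 22 S phase and 26 G2/M phase genes together took a small share of the UMIs in most members and a clearly larger one in the rest. A cell with at least 0.3% of its UMIs from them is called cycling. There were 18 cycling members of 159 in intact (11.3%, 6.85 to 17.3%) and 236 of 568 in callus (41.5%, 37.5 to 45.7%). Between 0.2% and 0.4% lay 0 intact and 15 callus members. The limit was set after the distribution had been seen. Cycling members were deeper, with medians of 17312.5 and 18467.5 UMIs against 7654 and 7628.5 in non-cycling members. At an equal depth of 5000 UMIs, where 0.3% is 15 UMIs, that many would be reached by 10.6% of 151 intact and 44.3% of 515 callus members. At their own depth 12.6% and 43.8% of all members had at least 15. The comparison leaves out 8 intact and 53 callus members that were shallower. In fibroblasts, few of which divide, 0.985% and 2.55% would reach it.

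**Figure D3:**
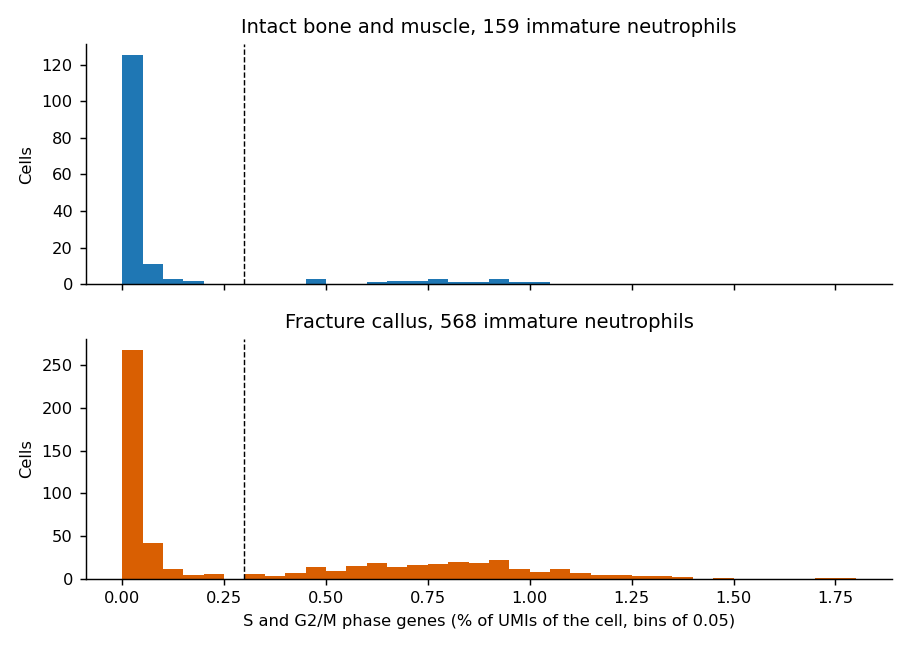
Number of immature neutrophils (y axis) by the percent of their UMIs from 48 S and G2/M phase genes (x axis) in the intact (top) and callus (bottom) library, with the limit of 0.3% dashed. The upper group holds 18 of 159 intact and 236 of 568 callus cells.

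A single UMI of these 48 genes says less. At 5000 UMIs per cell, an expected 91 of 151 intact and 422 of 515 callus members would carry at least 1 (71.7% and 86.6% of all members at their own depth). So would 56.2% of 34 intact and 60.3% of 39 callus mature neutrophils, the few that were deep enough. Mki67, a marker of dividing cells, would be seen in 11.6% of intact and 46.8% of callus members, against 2.27% and 12.9% of these mature neutrophils and 1.19% and 3.25% of fibroblasts. By level, Mki67 was at 115 CPM in intact and 480 in callus members, 4.18-fold higher, and in mature neutrophils at 3.41 (2 UMIs) and 168 CPM. Top2a, the topoisomerase of mitotic chromosomes, was at 149 and 417 CPM.

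Of 21 S phase genes with enough UMIs all 21 were at least 2-fold higher in callus members, and of 26 G2/M phase genes 25, against 23% of all genes. The exception was Cks2, a CDK subunit (log2 0.85). Summed over mature neutrophils, S phase genes were at 64.8 and 296 CPM and G2/M phase genes at 179 and 1124 CPM in intact and callus. In members they were at 433 and 1489 CPM and 1330 and 3702 CPM. The callus mature sum includes cells of 18501, 17372 and 28448 UMIs, with 1.24%, 0.645% and 0.366% from these genes. The median of that class was 3727 UMIs. Transcripts of other cell types were also higher in callus mature neutrophils (B lineage genes 63.1 and 760 CPM, erythroid genes 2019 and 41438.5 CPM). Their part in the mature difference was not tested. In cycling members alone, 8 of 21 S phase and 0 of 26 G2/M phase genes were at least 2-fold higher and 0 lower, against 15.9% and 1.64% of 6142 genes. These cells were chosen on the same genes, so their levels are a description. Summed G2/M phase genes were at 5674 CPM in intact and 5746 CPM in callus cycling members. Their S phase genes were at 1872 and 2297 CPM. Rrm2, a subunit of ribonucleotide reductase, was the most abundant S phase gene of both libraries.

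By late share, which is computed from genes of the rule, cycling members were at the low end. All 18 intact and 233 of 236 callus cycling members had a late share under 2%. Within that bin, 28.6% of 63 intact and 59.9% of 389 callus members were cycling. The bins of late share under 2%, from 2 to 10% and from 10 to 50% held 63, 33 and 63 intact members and 389, 82 and 97 callus members. Thus 39.6% of intact and 68.5% of callus members were in the earliest bin.

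Cycling and non-cycling members were compared within each library. Of 2374 genes, 244 (10.3%) were at least 2-fold higher in cycling than in non-cycling members in both libraries and 218 (9.18%) lower in both. The cycle genes define this split and are no result of it. Outside those lists the highest included the histone genes Hist1h1b, Hist1h3c and Hist1h2ap and the condensin and spindle genes Smc2 and Prc1. Smc2 had 105 UMIs in cycling and 3 in non-cycling intact members, and in callus it was higher in cycling members by 7.04 on the log2 scale. Unlike the listed cycle genes, Hist1h2ap was lower in callus cycling members, at 7768 CPM in intact and 1617 CPM in callus. In progenitors it was at 4173 and 1012 CPM, but in the mature cells above a late share of 90% at 71.9 and 359 CPM. Histone genes have near-identical copies and mostly lack a poly(A) tail, so their counts are uncertain. The lowest included Mmp8 (−6.48 and −5.54), Mmp9, the gelatinase of tertiary granules (−3.40 and −4.66), and Fpr1, a formyl peptide receptor (3 UMIs in intact cycling members, −4.22 in callus). Of 9 late maturation genes outside the rule 7 were at least 2-fold lower in cycling members in both libraries, and of 6 gelatinase granule genes 4. Nearly all cycling members have a low late share, which the late genes of the rule set.

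Genes along the range were then followed in 7 steps, from progenitors through cycling members and the 3 bins of non-cycling members to mature cells below and above a late share of 90%. The order rests on genes of the rule, and the other genes are described along it. Cebpe, the gene of C/EBPε, was at 416, 357, 221 and 155 CPM in the 4 intact member steps and at 587, 478, 301 and 176 CPM in callus. It was at 85.5 and 26.2 CPM in the intact and 52.6 and 29.3 CPM in the callus mature steps. Its level was thus highest in cycling members of both libraries.

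Fcnb and Chil3 had the same early peak. Fcnb was at 690, 204, 36.9 and 0 CPM over the intact member steps and at 1332, 406, 71.3 and 6.66 CPM in callus. Chil3 was at 5922, 3919, 2542 and 979 CPM in intact and at 7032, 5352, 2907 and 1188 CPM in callus. Lcn2 peaked in non-cycling members with a late share under 2%, at 19362 CPM in intact and 18012 CPM in callus. Ly6g peaked in the bin of 2 to 10%, at 952 CPM in intact and 1151 CPM in callus, compared with 258 and 207 CPM in cycling members.

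Cybb, the catalytic subunit of the NADPH oxidase, was highest with a late share under 2%, at 1951 CPM in intact and 2698 CPM in callus. Mmp8 was highest with a late share of 10 to 50%, at 3968 CPM in intact and 3521 CPM in callus, against 26.2 and 32.6 CPM in cycling members. Mmp9 was at 1836 CPM in intact and 2743 CPM in callus in that same bin. Slpi, a protease inhibitor, did not peak among members and reached 3008 and 2949 CPM in the last mature step.

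**Figure D4:**
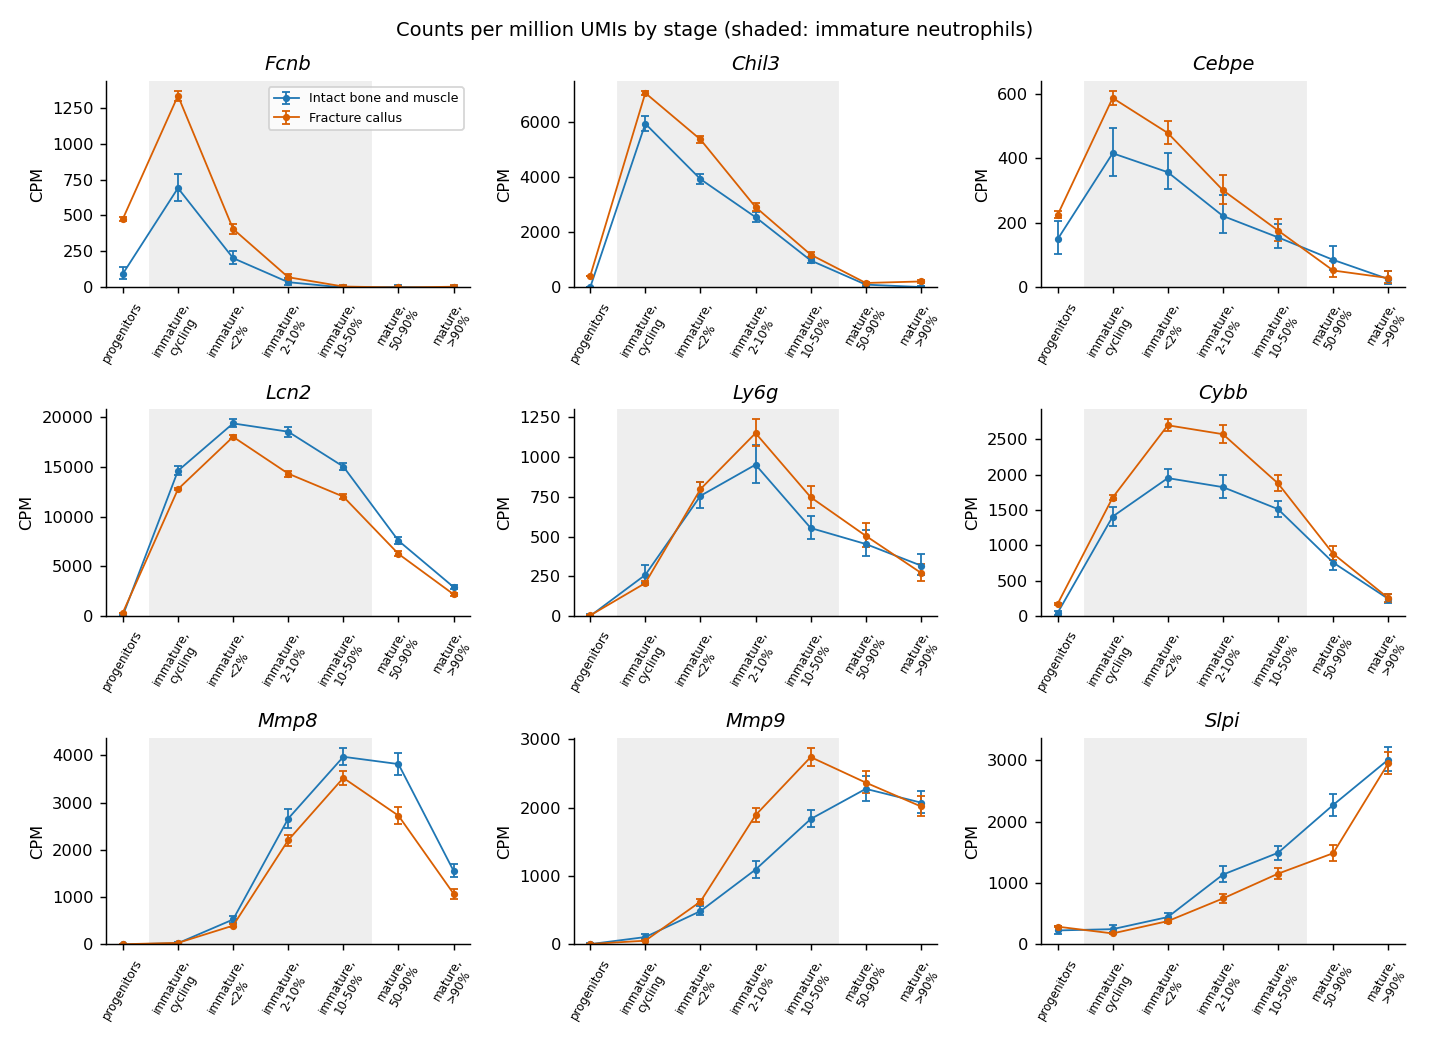
CPM of 9 genes (y axes) in 7 steps from progenitors to mature neutrophils (x axes, percent is the late share), with exact Poisson intervals, for the intact (blue) and callus (orange) library. Fcnb, Chil3 and Cebpe are highest in cycling immature neutrophils, Ly6g with a late share of 2 to 10% and Mmp8 with a late share of 10 to 50%, in both libraries.

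Compared step by step, fewer genes were apart than in all members together. Among non-cycling members 325 of 4620 genes (7.03%) were at least 2-fold higher and 29 (0.628%) lower in callus. With a late share under 2% and non-cycling these were 10.7% and 0.521% of 3072 genes, from 2 to 10% they were 9.21% and 0.603% of 1825 genes, and from 10 to 50% 4.04% and 0.797% of 1883 genes. The numbers of genes differ because the minimum of 50 UMIs applies within each step. The shares are thus not over the same genes, and part of their fall can come from that. In non-cycling members 0 of 13 specific granule, 0 of 7 gelatinase granule and 0 of 17 late maturation genes were 2-fold apart in either direction. Mmp8 was then at log2 −0.63 and Retnlg at −0.75.

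Genes of late maturation were lower in callus members as a whole. Of 20 listed genes 17 had enough UMIs, of which 5 were at least 2-fold lower and 0 higher. Without the genes of the rule it was 4 lower and 0 higher of 13, against 1.79% lower and 23% higher of all genes. Retnlg, a gene of the rule, was at 6805 CPM in intact and 1992 CPM in callus members, 3.42-fold lower. Among genes outside the rule, Slpi was at 848 and 349 CPM, 2.43-fold lower. Il1r2, the decoy receptor for interleukin 1, was 2.83-fold lower, and Clec4e, a C-type lectin receptor, 2.78-fold lower. Msrb1, a selenoprotein reductase, was at 543 and 557 CPM. Without the genes of the rule the list summed to 3066 CPM in intact and 1804 CPM in callus, log2 −0.76, and to −0.18 in non-cycling members.

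Gelatinase granule genes were partly lower. Of 7 genes, 2 were at least 2-fold lower and 0 higher in callus, against 1.79% and 23% of all genes, namely Adam8, a surface metalloprotease (256 and 101 CPM), and Slc11a1, a metal transporter of phagosomes (19.7 and 7.14 CPM). Lyz2, lysozyme, was at 10432 and 10055 CPM, and Itgam, the CD11b integrin chain, at 592 and 589 CPM. The summed log2 ratio was −0.12, and in non-cycling members 0.09.

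Among 14 neutrophil transcription factors 12 had enough UMIs, with 3 at least 2-fold higher and 1 lower in callus, against 23% and 1.79% of all genes, so that the higher share is that of the background. Gfi1, a repressor needed for granulocyte differentiation, was 4.07-fold higher (4.75 and 19.4 CPM, from 7 UMIs in intact). Runx1 was at 22.4 and 50.4 CPM, and Irf8, a factor of monocyte fate, at 1.36 and 7.83 CPM. Over the member steps Irf8 was at 3.27, 2.22, 0 and 0 CPM in intact. In callus it was at 4.59, 4.06, 44.4 and 3.33 CPM, high only in the bin of 2 to 10%. Mxd1, a MYC antagonist of late stages, was 2.26-fold lower (621 and 275 CPM). Over the 3 bins of non-cycling members Mxd1 was at 368, 830 and 1062 CPM in intact and 351, 602 and 885 CPM in callus. In non-cycling members 0 of 10 factors were 2-fold apart, against 7.03% higher and 0.628% lower of 4620 genes. Spi1, the gene of PU.1, was at 342 and 340 CPM and Cebpd at 323 in both.

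The 6 NADPH oxidase genes were all tested and 0 were 2-fold apart, against 23% higher and 1.79% lower of all genes. Cybb was at 1682 and 1977 CPM, Cyba, its partner in the membrane, at 2099 and 1972 CPM, and Ncf1, the p47 subunit, at 549 and 584 CPM. Of 19 trafficking and surface receptor genes 2 were at least 2-fold higher and 0 lower, a smaller share higher than in all genes. These were the integrin chains Itga4 (13.6 and 32.8 CPM) and Itgb1 (27.2 and 55.6 CPM). Cxcr4, the receptor that holds cells in the marrow, was at 47.5 and 65.2 CPM. Cxcr2, which draws neutrophils out and is a gene of the rule, was at 107 and 72.1 CPM.

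Ribosome biogenesis genes were higher in callus members, with 9 of 10 at least 2-fold higher and 0 lower, against 23% and 1.79% of all genes. Npm1, nucleophosmin, was at 46.9 and 162 CPM, and Ncl, nucleolin, at 82.2 and 181 CPM. Summed, the list was at 192 and 509 CPM in members and at 111 and 295 CPM in mature neutrophils. Callus mature neutrophils also held more transcripts of other cell types. B lineage genes were at 63.1 and 760 CPM and dendritic genes at 47.7 and 574 CPM in intact and callus mature neutrophils. Whether these had a part in the mature difference was not tested. In non-cycling members 0 of 3 genes with enough UMIs were 2-fold apart, against 7.03% higher and 0.628% lower of 4620 genes. Ribosomal protein genes took 3.27% of the UMIs of intact and 6.25% of callus members, and mitochondrial genes 0.321% and 0.836%. Both shares were also higher in the callus cells outside the neutrophil classes, at 18.3% and 20.3% for ribosomal protein genes and 1.62% and 2.18% for mitochondrial genes. Their part in the ratios was not tested.

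Inflammatory genes were lower in members than in mature neutrophils. The NF-kB and inflammatory list without Il1b, which is in the rule, summed to 710 CPM in intact and 501 CPM in callus members, against 6884 and 6636 CPM in mature neutrophils. Of its 11 genes tested 2 were at least 2-fold higher and 2 lower in callus members, against 23% and 1.79% of all genes. Cxcl2, a neutrophil-attracting chemokine, was at 128 and 36.0 CPM, 3.55-fold lower. Ccl3 and Ccl4, chemokines, were the 2 higher genes, with under 10 CPM in both libraries. The interferon response list summed to 879 and 539 CPM in members, 1528 and 1467 CPM in mature neutrophils and 186 and 205 CPM in progenitors. Of 7 of its genes tested 2 were at least 2-fold higher and 2 lower in callus members, against 23% and 1.79% of all genes. Ifitm3, an antiviral membrane protein, was at 723 and 400 CPM. In non-cycling members the summed log2 ratio was −0.06 for the NF-kB list without Il1b and −0.25 for the interferon list. Over the 3 bins of non-cycling members Ifitm3 was at 712, 705 and 970 CPM in intact and 526, 667 and 880 CPM in callus. Cxcl2 was at 11.1, 59.0 and 376 CPM and at 19.0, 26.9 and 311 CPM.

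Immediate-early and heat shock genes, which respond to tissue digestion, were not uniformly apart. Of 17 genes 3 were at least 2-fold higher and 2 lower in callus, against 23% and 1.79% of all genes. Fos was at 534 and 330 CPM, and Hsp90aa1, a chaperone, at 70.0 and 221 CPM. Glycolysis and hypoxia genes were 2-fold apart in 0 of 11 cases, against 23% higher and 1.79% lower of all genes. Gapdh was at 1047 and 972 CPM. Of 7 genes of nuclear shape and chromatin 2 were at least 2-fold higher and 0 lower, against 23% and 1.79% of all genes. Among the 2 was Hmgb1 (325 and 692 CPM). Hmgb2, a chromatin protein that also goes with division, was at 2137 and 4155 CPM, 1.94-fold higher. Of 4 CDK inhibitor genes 1, Cdkn2c, was at least 2-fold higher and 0 lower, against 23% and 1.79% of all genes. Of 4 eicosanoid genes 1, Ptgs1, cyclooxygenase 1, was at least 2-fold higher, against 23% of all genes (2.86-fold, 29.2 and 83.5 CPM). In non-cycling members it was the 1 gene of 4 that was at least 2-fold higher, against 7.03% of 4620 genes. Lta4h, which makes leukotriene B4, was at 257 and 375 CPM.

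**Figure D5:**
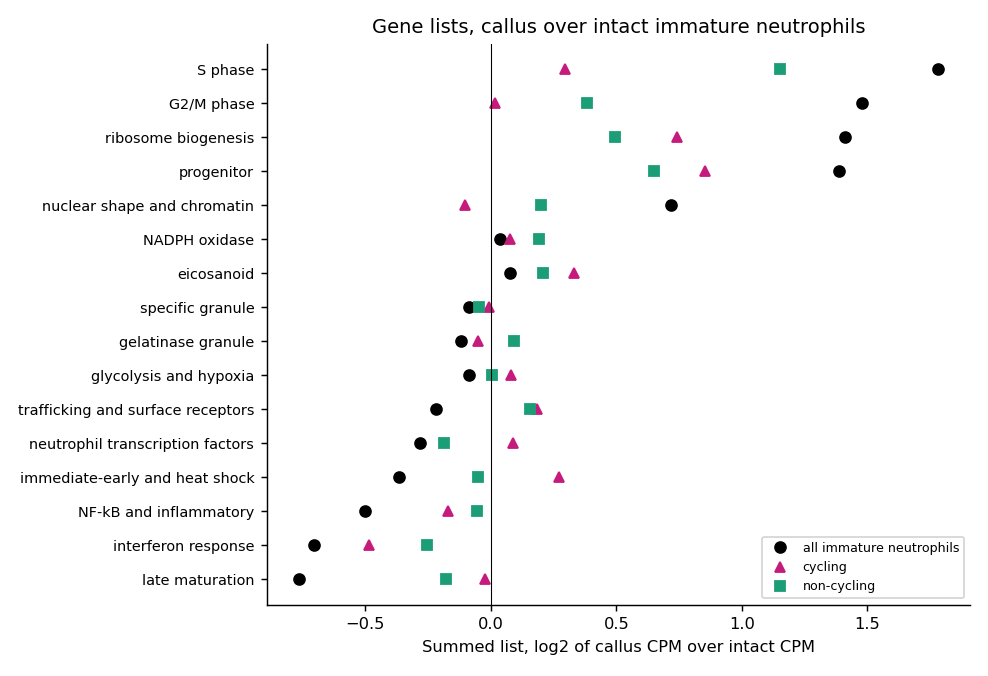
Log2 ratio of the summed CPM of 16 gene lists, callus over intact (x axis), in all immature neutrophils (circles), cycling (triangles) and non-cycling (squares) cells, leaving out genes of the rule where a list held any. S phase genes are at 1.78 in all cells, 0.30 in cycling and 1.15 in non-cycling cells, and late maturation genes at −0.76, −0.02 and −0.18.

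Against mature neutrophils of the same library, 267 of 3147 genes (8.48%) were at least 2-fold higher in members of both libraries and 495 (15.7%) lower in both, while 7 (0.222%) were 2-fold apart in opposite directions. The classes differ by the rule itself, so these are descriptions. Fcnb had 313 UMIs in intact and 6742 in callus members and 1 and 2 UMIs in mature neutrophils, too few there for a firm ratio. Chil3 was at 5.78 and 4.93. Zmpste24, the protease that matures lamin A, was at 4.54 and 3.95, and Serpinb1a, an inhibitor of neutrophil serine proteases, at 2.72 and 2.95. Lta4h was at 2.99 and 3.72. Without the genes of the rule, 4 of 10 specific granule genes were at least 2-fold higher in members of both libraries and 0 lower, and 12 of 14 late maturation genes were lower in both.

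Lower in members were genes of migration and inflammation. Jaml, a junctional adhesion molecule, had 2 UMIs in intact members and a log2 ratio of −6.22 in callus, and the chemokine genes Ccl6 and Cxcl2 were at −5.96 and −6.29 and at −5.17 and −6.86. Ptgs2, cyclooxygenase 2, was at −5.91 and −5.04 and Nlrp3, an inflammasome sensor, at −4.84 and −6.06. Of 15 trafficking genes outside the rule 1 was higher and 8 were lower in both libraries, against 8.48% and 15.7% of all genes.

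Against progenitors, 471 of 2952 genes (16%) were at least 2-fold higher in members of both libraries, 711 (24.1%) were lower in both and 0 (0%) were in opposite directions. The intact side rests on 7 progenitor cells with 241544 UMIs. Mmp8, Ly6g and Fpr2, a formyl peptide receptor, had 0 UMIs in intact progenitors, and in callus they were higher in members by 7.14, 7.03 and 7.74 on the log2 scale. Mmp9 had 1 UMI in intact progenitors and was higher by 6.46 in callus. Lower in members were Mif, a cytokine (−6.62 and −4.90), Calr, the chaperone calreticulin (−4.78 and −4.71), Lgals1, galectin 1 (−5.61 and −4.56), and Nme2, a nucleoside diphosphate kinase (−6.56 and −3.93). Of 6 ribosome biogenesis genes all 6 were lower in both libraries, and of 8 azurophil genes, 4 of them in the rule, all 8.

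Some genes were apart between the libraries in every kind of cell. AY036118 was at 933 CPM in intact and 98.6 in callus members (log2 −3.24), and in cells outside the neutrophil classes the log2 ratio was −3.21. Lars2, a mitochondrial tRNA synthetase, was at 472 and 155 CPM in members and at 697 and 232 CPM outside. These ratios are thus not particular to the members.

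Transcripts of other cell types were spread unevenly, some lists being held by few members and others not. The 6 erythroid genes summed to 13118 CPM in intact and 5599 CPM in callus members, with Hbb-bs, a beta globin, most abundant at 7656 and 3132 CPM, and 0 genes at 0. The 5 members with the most erythroid UMIs held 93.5% of them in intact and 95.1% in callus. The 7 fibroblast genes summed to 253 and 1341 CPM, with Pi16 leading in intact (113 CPM) and Col1a1 in callus (621 CPM), and 0 genes at 0. Over the intact member steps Pi16 was at 58.9, 75.4, 122 and 182 CPM, and at 153 and 369 CPM in the mature steps. In callus it was at 69.3, 85.4, 80.8 and 135 CPM, and at 141 and 133 CPM. B lineage cells held 30.3 CPM in intact and 29.1 CPM in callus. Whether members made Pi16 themselves was not tested. A single callus member held 96.3% of all Col1a1 and 94.7% of all Col1a2 UMIs of the callus members. The 6 bone genes, led by Spp1 in intact and Bglap in callus, summed to 17.0 and 113 CPM, with 3 and 0 genes at 0.

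The remaining lists were less concentrated in some cases. The 8 B lineage genes, led by Ighm, summed to 42.8 and 184 CPM, with 3 genes at 0 in intact, and 5 members held 28.6% and 45.5% of these UMIs. The 8 skeletal muscle genes, led by Tnnt3 and Mylpf, summed to 283 and 335 CPM with none at 0, and 5 members held 66.9% and 31.4%. Of 8 monocyte genes, which sum to 629 and 885 CPM, Ly6c2, also a gene of young neutrophils, made up 622 and 848 CPM, and 5 genes were at 0 in intact. The 5 members with the most monocyte UMIs held 8.21% and 4.56% of them. Macrophage genes, led by Vcam1, summed to 21.7 and 37.1 CPM (1 and 0 at 0), and T and NK genes, led by Cd3d, to 19.0 and 16.2 CPM (5 and 0). Dendritic genes, led by Bst2 and Cd74, summed to 13.6 and 61.6 CPM (2 and 0), eosinophil, basophil and mast cell genes, led by Siglecf, to 2.72 and 5.90 CPM (4 and 2) and endothelial genes, led by Pecam1, to 2.04 and 5.77 CPM (3 and 0). At least 1% of UMIs from these lists, monocyte and dendritic lists not counted, was found in 3 intact and 17 callus members. Without these, 22.8% of 7133 genes were at least 2-fold higher and 1.77% lower in callus, and Mmp8 and Fcnb were at log2 −1.67 and 2.11. Of the 10 genes with the highest callus ratios, 7 had at least 79.0% of their callus UMIs in 1 member. They were Col1a1, Col1a2, Bglap, Bglap2, Ibsp, Apod and Cxcl12, genes of bone and stroma.

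Outside the members, transcripts of Camp were at 14.8 CPM in intact and 38.9 CPM in callus cells of no neutrophil class. A Camp UMI was found in 5.47% of intact and 23.0% of callus B lineage cells, at median depths of 2927.5 and 3380 UMIs. All members carried it, at median depths of 7922 and 10284.5 UMIs. Camp is a gene of the rule, so its presence in members follows from their choice, and the share in B lineage cells is the background of each library. Whether it came from free RNA or doublets was not tested.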

How the data were processed

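Single cell libraries of tdTomato-sorted cells, 1 from intact bone and muscle and 1 from callus, were read as the deposited UMI counts per gene and cell. The authors made these counts with Cell Ranger (6.0.0 in the file header) on mm10, and the paper names Seurat for its own clustering. The authors' cell filter is not given in the sources used here, and no cell annotation was used. Of 5859 deposited barcodes 4502 passed the limits of 500 genes and 10% mitochondrial UMIs.

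Groups came from the sample labels. UMIs were summed over the members of a library and divided by their total (CPM). Log2 ratios have exact conditional binomial intervals, CPM exact Poisson and shares exact Clopper-Pearson intervals. Each is a 95% interval that covers counting error alone. With 1 library a condition there was no replicate, no test and no p-value. Genes 2-fold apart were counted among those with at least 50 UMIs. Cells were compared at equal depth by the exact expected share after drawing 5000 UMIs. B lineage cells had at least 5 Cd79a and Cd79b UMIs and fibroblasts at least 20 Col1a2, Dcn and Col3a1 UMIs. Doublets were not removed, because Scrublet's default called 3 and 4 cells, and an alternative removed the highest scores.

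The members and the gene lists were chosen with earlier results of these data known. The limits for cycling (0.3%) and other-type cells (1%) and the rules for B lineage cells and fibroblasts were set after the data had been seen. Genes named in the text are those of the rule and the markers, in each list the 4 most abundant and the 2 highest and 2 lowest callus over intact ratios, and the 10 highest and 10 lowest of each comparison among genes with at least 100 UMIs. Cd177, Clec4e, Cxcr4, Hsp90aa1, Lars2, Pglyrp1, Runx1 and Xist fall outside that rule and were chosen after their values were seen. The count summaries were tested on simulated data. Alternatives changed the cell filter, each limit of the rule, doublets, the CPM total, the weight of cells and the minimum of UMIs. Promoters are from RefSeq. Python 3.11.15, numpy 2.4.6, scipy 1.17.1, pandas 2.3.3 and scanpy 1.11.5 were used.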

Additional observations from a re-analysis of the deposited data

Results flagged for a closer look

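Between members and mature neutrophils, 7 genes were at least 2-fold apart in opposite directions in the libraries, and these differences between libraries were not tested. The log2 ratio of members over mature neutrophils was 2.48 in intact and −2.94 in callus for Hbb-bs, 3.01 and −2.77 for Hbb-bt, 3.17 and −2.87 for Hba-a1, and 2.99 and −2.83 for Hba-a2, all globin genes. It was −1.73 and 1.61 for Col1a1 and −1.41 and 1.59 for Col1a2, the chains of type I collagen, and −3.62 and 2.49 for Igfbp5, a binding protein of insulin-like growth factors. Summed erythroid genes were at 13118 CPM in intact and 5599 CPM in callus members, and at 2019 and 41438.5 CPM in mature neutrophils. Of the erythroid UMIs of members, 93.5% in intact and 95.1% in callus were in 5 cells. In callus 96.3% of Col1a1, 94.7% of Col1a2 and 66.1% of Igfbp5 UMIs of members were in 1 cell. Whether doublets or free RNA had a part in this was not tested.

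Among the callus barcodes that failed the cell filter, 9 of 692 (1.30%) met every other limit of the rule, and 8 of these had under 500 genes. In intact tissue it was 2 of 665.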

How the results depend on the processing

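No paired analysis was possible because each condition is 1 library. Of 153 values of main results under alternatives, 123 moved by less than their counting interval or within 1.5 times the count, 29 moved by more and 1 changed sign. Of 176 values of other lists, 120, 44 and 12 did so. Under limits of 1000 genes and 5% mitochondrial UMIs, members were 15.4% of intact and 19.8% of callus cells, and 64.5% and 84.2% of neutrophils. With at least 200 genes they were 15.7% of callus cells. A cell cycle UMI would be found in 28.0% of intact and 55.7% of callus members at 1000 UMIs, and at least 2 UMIs in 33.1% and 64.1% at 5000 UMIs.

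In non-cycling members alone (an alternative chosen after seeing the data), 325 genes were 2-fold higher and 29 lower in callus. With CPM totals without the genes of the rule, 230 genes were lower in callus, 430 were higher than in mature neutrophils, and 877 were higher and 339 lower than in progenitors. With a minimum of 20 UMIs these were 233 lower in callus, 557 higher than in mature neutrophils and 1441 lower than in progenitors.

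The summed log2 ratio of specific granule genes outside the rule was −0.044 with primary granule UMIs under 0.5%, −0.058 without the highest doublet scores, −0.30 with totals without the genes of the rule, −0.060 as the mean of per-cell CPM and −0.046 in non-cycling members. That of gelatinase granule genes was −0.084 with primary granule UMIs under 0.5%, −0.33 with totals without the rule, −0.023 by per-cell mean and 0.091 in non-cycling members. G2/M phase genes were at 1.27, 1.64 and 0.38 under the last 3 settings. Lists whose sum changed sign with totals without the rule were the markers (−0.16), azurophil (−0.16), NADPH oxidase (−0.17), CDK inhibitor (−0.18) and eicosanoid (−0.14) genes. Azurophil genes were also at −0.23 with primary granule UMIs under 0.5%, at −0.32 by per-cell mean and at −0.55 in non-cycling members, and CDK inhibitors at −0.045 and −0.30 under the last pair of settings. Trafficking (0.16) and glycolysis genes (0.0053) changed sign in non-cycling members. Totals without the genes of the rule shift every ratio by construction, and for the other settings the cause was not tested. The intact library, with 159 members and 7 progenitors, limits the precision of every ratio.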

Other observations

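Further genes with large ratios fit none of the lists. Fosl1, an AP-1 family factor, was at 41.4 CPM in intact and 8.92 in callus members, and Basp1, a membrane protein, at 34.0 and 9.89 CPM. Pira2, an immunoglobulin-like receptor with near-identical relatives, was at 86.3 and 25.4 CPM, so that its count is uncertain. Btg1, an antiproliferative gene, was at 799 and 263 CPM, and its log2 ratio was −1.60 in members and −1.07 in cells outside the neutrophil classes. F10, coagulation factor X, was at 0.679 CPM in intact (1 UMI) and 13.9 CPM in callus members, with 7.92% of its callus UMIs in 1 cell.

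Some genes were at similar levels in members of both libraries and nearly absent from progenitors. St3gal5, a sialyltransferase of ganglioside synthesis, was at 251 and 239 CPM and higher than in callus progenitors by 6.49 on the log2 scale. AA467197 was at 370 and 312 CPM and higher by 7.02. Both had 0 UMIs in intact progenitors.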
